A study of Homo sapiens with 24 samples.

Results

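The genes described here are 38 genes of the G2 phase and mitosis, listed by their known function. The list was chosen with earlier results of these data known. Of the 38, 36 had a probe set of their own on the array, among 22395 named genes in all. BUB1B shared its probe set with PAK6, and both CENPA probe sets also named SLC35F6, so these were not counted as measured. All 36 measured genes entered the tests without a filter on signal.

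SUM159, a triple-negative breast cancer cell line, and T47D, an oestrogen receptor positive luminal breast cancer line, were each grown in 3 experiments, numbered 2 to 4 for SUM159 and 5 to 7 for T47D. In each experiment, cells received the solvent DMSO or 5 µM of ID8, a small molecule, for 72 hours. They were then sorted into Aldefluor+ and Aldefluor- fractions. Aldefluor is a fluorescent substrate of aldehyde dehydrogenase, an enzyme activity used to enrich for breast cancer stem cells, and the gate was set with the dehydrogenase inhibitor DEAB. This gave 8 groups of 3 arrays, 24 arrays in all, from pooled flasks of established lines with no genetic change stated in the labels. The values are the authors' log2 signals per probe set, already adjusted by them for batch, so a difference of 1 is a 2-fold change.

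Cells enter mitosis when cyclin B with CDK1 is switched on by CDC25 phosphatases. Aurora and Polo-like kinases then build the spindle, the checkpoint holds the anaphase-promoting complex until every chromosome is attached, and a central spindle guides the final cut between daughter cells. Most of these genes are transcribed late in the cell cycle, in part through FOXM1 and through a promoter element called the cell cycle genes homology region, often beside CCAAT boxes bound by NF-Y. Their RNA is commonly read as a sign of the share of cells in G2 and mitosis. In sorted bulk samples such as these, fewer cells in that stage and less RNA per cell cannot be told apart.

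The shared promoter letters of the genes can be read directly. RefSeq promoter windows on GRCh38.p14, from 250 bases before to 50 bases after the start, were matched for 31 of the 38 genes. The letters TTTGAA or TTCGAA, the core of the homology region, were searched on both strands and were present in 21 windows, or 67.7%, against 16.6% of 27305 promoters of the same length. CCAAT on either strand was present in 24 windows, or 77.4%, against 35.7% of all promoters, and 18 windows (58.1%) held both against 6.58%. The 120 bases before the start of 5 genes follow, picked by hand from those that recur in the comparisons, with both sets of letters in capitals. TTCAAA and ATTGG are the same letters read on the opposite strand, and where the 2 overlap the capitals run together.
PLK1: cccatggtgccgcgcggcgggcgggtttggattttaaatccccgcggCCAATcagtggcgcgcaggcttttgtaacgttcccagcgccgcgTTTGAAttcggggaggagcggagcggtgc
MKI67: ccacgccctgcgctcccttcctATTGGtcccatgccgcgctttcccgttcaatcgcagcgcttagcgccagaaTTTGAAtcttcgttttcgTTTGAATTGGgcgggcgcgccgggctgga
CDCA8: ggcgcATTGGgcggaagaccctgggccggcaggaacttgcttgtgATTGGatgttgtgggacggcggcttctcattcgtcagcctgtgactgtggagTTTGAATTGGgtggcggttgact
KIF23: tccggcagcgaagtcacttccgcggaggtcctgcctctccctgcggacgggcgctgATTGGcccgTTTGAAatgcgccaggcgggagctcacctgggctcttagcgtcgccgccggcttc
KIF20A: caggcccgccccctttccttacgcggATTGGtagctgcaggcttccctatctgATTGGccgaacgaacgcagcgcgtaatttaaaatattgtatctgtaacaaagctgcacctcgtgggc
The PLK1 stretch lies at chr16:23678769-23678888 on the plus strand, that of MKI67 at chr10:128126424-128126543 on the minus strand and that of CDCA8 at chr1:37692396-37692515 on the plus strand. KIF23 was read at chr15:69414229-69414348 and KIF20A at chr5:138178992-138179111, both on the plus strand. The first 4 hold TTTGAA, whereas the KIF20A window holds only ATTGG. NEK2, which recurs as well but is not printed, held CCAAT at 2 places and neither TTTGAA nor TTCGAA. A match is a description of these letters and not evidence of binding.

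Several checks of the arrays bear on the values below. ALDH1A1, a dehydrogenase that turns over Aldefluor, was 2.80 ± 0.17 (log2 difference ± SE) higher in Aldefluor+ than in Aldefluor- SUM159 cells with DMSO (limma, adjusted p = 4.73e-07) and differed by 0.21 ± 0.17 in T47D (adjusted p = 0.802). ALDH1A3, the other dehydrogenase checked, differed by -0.01 in SUM159 and 0.07 in T47D with DMSO. With ID8 the T47D fractions differed by 0.78 for ALDH1A3 and -0.03 for ALDH1A1, and neither gene was called there. All 5 SUM159 markers (VIM, AXL, CD44, ZEB1, CAV1) had the higher mean in SUM159 and all 6 T47D markers (CDH1, ESR1, GATA3, FOXA1, PGR, KRT18) the higher mean in T47D. Some gaps were near the SD over a line's arrays. CD44 read 5.60 ± 0.18 (mean ± SD) in SUM159 and 5.43 ± 0.15 in T47D, and KRT18 4.74 ± 0.15 and 4.89 ± 0.14. Others were wider, as for PGR at 5.08 ± 0.14 and 6.25 ± 0.06. The leukocyte and endothelial genes PTPRC, CD3E, CDH5 and VWF had line means of 0.90 to 1.23. The Aldefluor+ DMSO array of SUM159 experiment 4 stood apart from the rest of its group by its interquartile range over all probe sets, 2.05 against 2.26 on both others, and leaving it out changed no call among the mitosis genes. RNA yield per collected cell was higher in Aldefluor+ than in Aldefluor- cells in all 12 pairs, by 0.09 to 0.81 on the log2 scale, and its part in the differences between fractions was not tested.

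Signal differed widely between the mitosis genes. Mean signals over all arrays ranged from 1.92 for PTTG1, the securin that guards sister chromatid cohesion, to 9.01 for TOP2A, the topoisomerase that untangles chromosomes. PTTG1 was the only gene with a mean under 2, a level that 49.0% of all named genes did not reach, and AURKA, the centrosomal Aurora kinase, stood next at 2.37. The residual SD of the mitosis genes around group and experiment had a median of 0.127. It was 0.209 over the 11598 genes with a mean between the lowest and highest of theirs. Those genes were not matched on signal within that range. Apart from PTTG1 and AURKA, the mitosis genes ranked at 74.6% or higher among all named genes by signal. The standard error of a difference between a pair of groups was 0.123 at the median and 0.0956 to 0.226 over the genes. The mitosis genes had close means in the 2 lines, as for CCNB1 at 8.92 in both, with CDC25B at 4.99 in SUM159 and 4.76 in T47D. Each experiment held only 1 line and the authors had adjusted the values for batch, so levels of these genes were not compared between lines.

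ID8 was compared with DMSO first in Aldefluor+ T47D cells, where the differences were furthest from 0. All 36 genes read lower with ID8, with a median log2 difference of -0.25 and a range from -0.56 to -0.02, while over all named genes the median was -0.01 and 48.2% lay above 0. None passed an adjusted p of 0.05 in limma, against 0.375% of all genes; 14 of the 36 had an unadjusted p under 0.05, all lower, against 10.8% of all genes. The count rests on how the experiment is treated. With the experiment left out of the model 4 of the 36 passed, FOXM1, PLK1, KIF20A and MKI67, against 2.37% of all genes in that model. The deposited values held little difference between experiment means within a line (an SD of 0.0182 over the mitosis genes). Deviations of arrays of the same experiment correlated at -0.41 to -0.27, a pattern that arises when experiment means are removed beforehand. The model without the experiment charges no degrees of freedom for such a removal, so its counts may be too high. The authors' batch factor is not known. With genes under a mean signal of 2 left out 1 gene passed, against 1.15% of the genes tested, and with limma's trended, robust prior 2, against 0.728%.

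KIF20A, the kinesin that carries regulators to the central spindle, gave the smallest adjusted p. Its signals in Aldefluor+ T47D cells were 6.68, 6.73 and 6.45 with DMSO in experiments 5, 6 and 7, and 6.08, 6.05 and 6.06 with ID8. Every ID8 array lay below every DMSO array, and the ID8 arrays differed among themselves by far less than the DMSO arrays. Here and below, genes were named largely by the ratio of their difference to its standard error. A lack of overlap between their arrays follows in part from that choice and adds no support to the test. The share of all named genes without overlap was not counted. The difference was -0.56 ± 0.12 (SE, 1.47-fold lower, 95% interval -0.82 to -0.30), with an adjusted p of 0.0677 in limma over all genes.

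PLK1, the Polo-like kinase needed for mitotic entry, spindle assembly and cytokinesis, read 7.94, 7.97 and 7.85 with DMSO and 7.52, 7.39 and 7.20 with ID8. The groups did not overlap, and the difference of -0.55 ± 0.14 had an adjusted p of 0.115 in limma. FOXM1, the transcription factor that drives many genes of this stage, read 5.51, 5.53 and 5.57 with DMSO and 5.09, 5.05 and 5.07 with ID8. Both sets of arrays were tight and apart, with a difference of -0.47 ± 0.12 and an adjusted p of 0.125 in limma. MKI67, which encodes the Ki-67 protein that coats mitotic chromosomes, read 8.20, 8.12 and 7.99 with DMSO and 7.73, 7.55 and 7.66 with ID8. Its arrays did not overlap either, and the difference was -0.46 ± 0.13 (limma, adjusted p = 0.183).

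**Figure D1:**
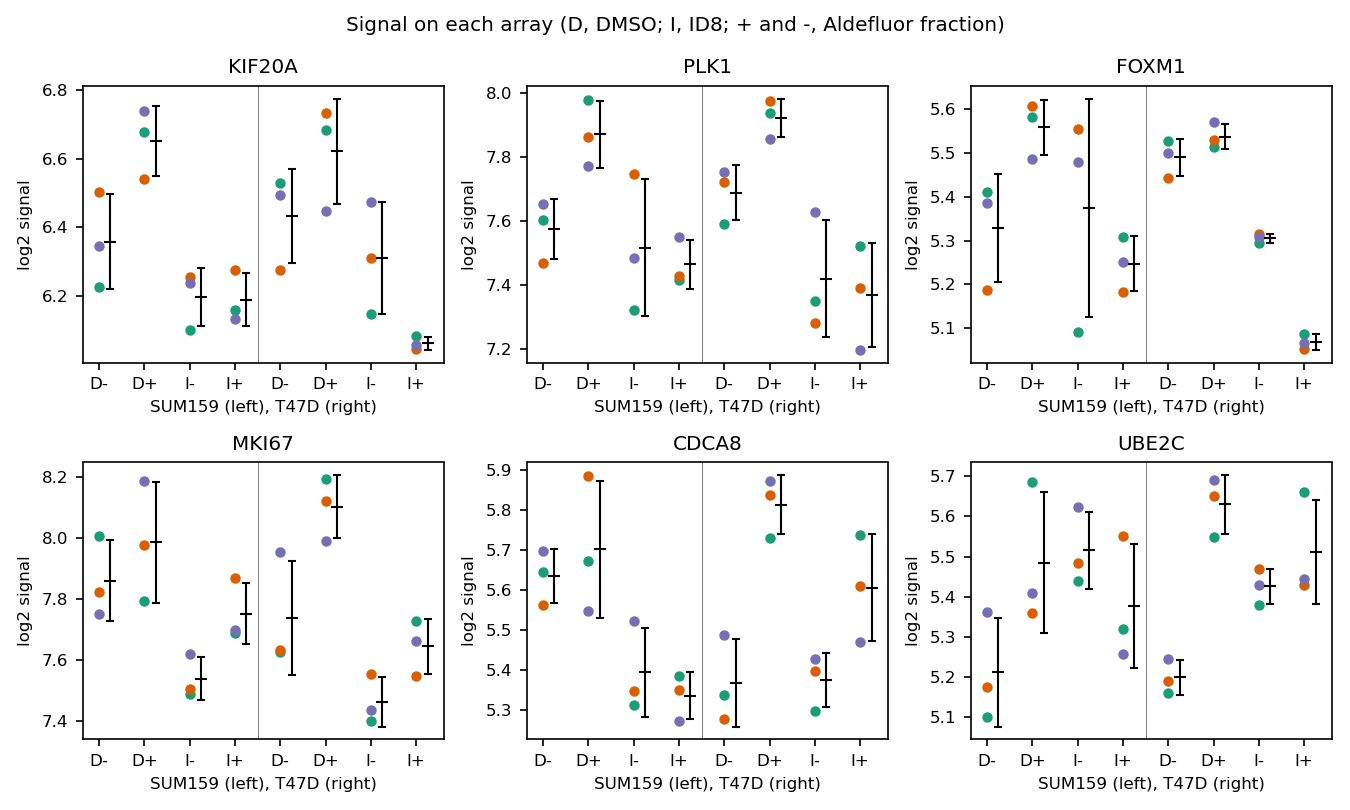
Log2 signal of 6 mitosis genes on each of the 24 arrays (y axis), by group (x axis: D, DMSO; I, ID8; + and -, Aldefluor fraction; SUM159 left of the line, T47D right). Points are arrays coloured by experiment in the order of its number within each line; black bars are the group mean and SD (n = 3). In Aldefluor+ T47D cells the ID8 arrays of KIF20A, PLK1, FOXM1 and MKI67 all lie below the DMSO arrays.

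By role, the 8 genes of mitotic entry in Aldefluor+ T47D cells had a median difference of -0.33, the widest member being CDK1 at -0.54 ± 0.22 (limma, adjusted p = 0.389). CDK1, the kinase at the centre of the switch, read 7.05, 7.11 and 6.90 with DMSO and 6.74, 6.28 and 6.43 with ID8. Its partner CCNB1, cyclin B1, differed by -0.24 ± 0.10, to a mean of 8.76 with ID8. The 3 genes of the central spindle and cytokinesis had a median of -0.35 and the 8 spindle motors and microtubule binders one of -0.25. The 6 kinetochore and passenger genes had a median of -0.24, with AURKB, the kinase of the passenger complex, at -0.23 ± 0.15.

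The 6 measured genes of the spindle checkpoint and the anaphase-promoting complex lay closest to 0 in that comparison, with a median of -0.13. BUB1, a checkpoint kinase, differed by -0.02 ± 0.13, and BUB3, its binding partner, by -0.04 ± 0.10. BUB3 was nearly level on all arrays of the 2 groups, from 8.47 to 8.64. TOP2A differed by -0.14 ± 0.11 (limma, adjusted p = 0.723), and the centrosomal kinase AURKA by -0.26 ± 0.14 at its low signal.

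**Figure D2:**
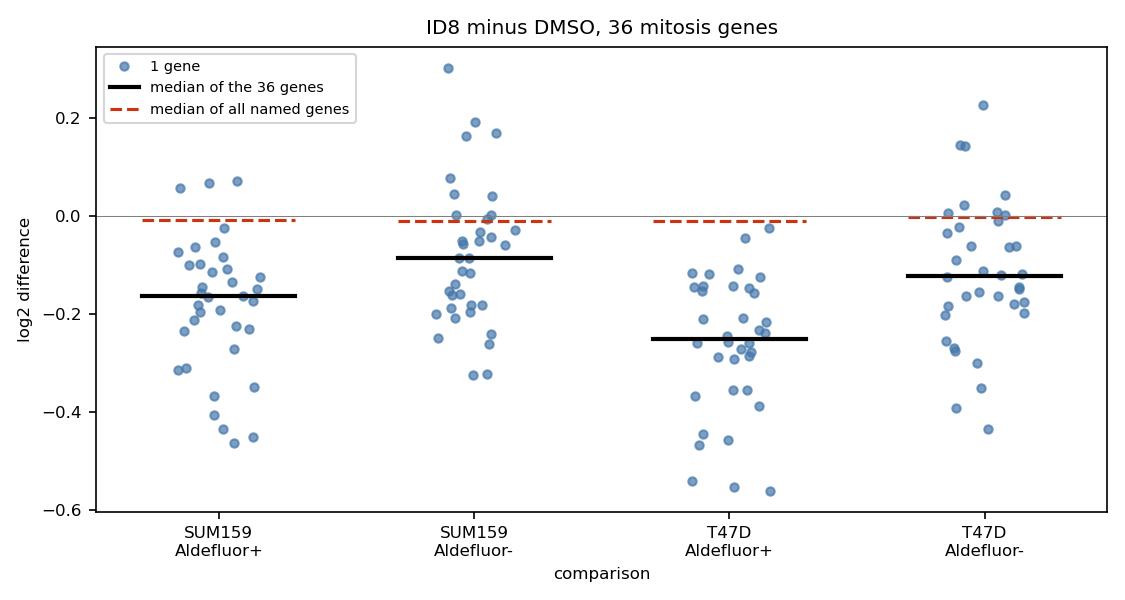
Log2 difference between ID8 and DMSO (y axis) of the 36 measured mitosis genes in each line and fraction (x axis), with 1 point per gene, the median of the 36 in black and the median of all 22395 named genes as a dashed red line. The 36 points lie below 0 in Aldefluor+ T47D cells, and the medians are -0.16, -0.09, -0.25 and -0.12 from left to right.

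In Aldefluor- T47D cells the same genes read closer to DMSO. The median difference with ID8 was -0.12, 8 of the 36 lay above 0, and no gene passed the test in limma, against 0.0179% of all genes; 2 of 36 had an unadjusted p under 0.05, no more than the 6.60% of all genes. NEK2, a kinase that parts the centrosomes, read 6.00, 5.92 and 5.98 with DMSO and 5.64, 5.56 and 5.81 with ID8. Its arrays did not overlap, and it differed by -0.30 ± 0.10 (limma, adjusted p = 0.632). KIF2C, a kinesin that takes microtubules apart at the kinetochore, differed by -0.43 ± 0.17. At the other end stood UBE2C, the ubiquitin-conjugating enzyme of the anaphase-promoting complex, at 0.23 ± 0.13, and CDC25B, a phosphatase that activates CDK1, at 0.15 ± 0.12.

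UBE2C read 5.16, 5.19 and 5.25 with DMSO and 5.38, 5.47 and 5.43 with ID8 in the Aldefluor- T47D cells, so that every ID8 array was the higher. Its direction was the opposite of most of the list there, although its test did not pass (limma, adjusted p = 0.832). The difference between the ID8 effects of the Aldefluor+ and Aldefluor- fractions was -0.34 ± 0.18 for UBE2C and -0.44 ± 0.17 for KIF20A. Over the 36 genes this interaction had a median of -0.18 (-0.10 without experiment 6) with 5 above 0, and none passed in limma, as was the case for all named genes (0% called); 1 gene, KIF20A, had an unadjusted p under 0.05, against 5.93% of all genes. An unequal response of the fractions was therefore not shown for any of the genes.

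Averaged over both T47D fractions, 34 of the 36 genes read lower with ID8, with a median of -0.19. No gene passed in limma with the experiment in the model, against 0.505% of all genes, and 15 had an unadjusted p under 0.05, all lower, against 10.9% of all genes. PLK1 came closest at -0.41 ± 0.10 (adjusted p = 0.0815), followed by MKI67 at -0.37 ± 0.09, KIF20A at -0.34 ± 0.09 and FOXM1 at -0.33 ± 0.08 (adjusted p = 0.114, 0.115 and 0.118). With the experiment left out of the model 5 genes passed, these 4 and NEK2, against 2.51% of all genes. With genes under a mean signal of 2 left out 4 passed, against 1.81% of the genes tested, and with a trended, robust prior 3, against 1.01%.

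In SUM159, ID8 was compared with DMSO in the same way. In Aldefluor+ cells 33 of the 36 genes read lower, with a median of -0.16, against -0.01 over all genes. None passed in limma, against 0.241% of all genes, and 8 had an unadjusted p under 0.05, all lower, against 10.3% of all genes. KIF20A was again the nearest to the threshold: it read 6.68, 6.54 and 6.74 with DMSO in experiments 2, 3 and 4, and 6.16, 6.28 and 6.13 with ID8. The arrays did not overlap, and the difference was -0.46 ± 0.12 (1.38-fold lower, adjusted p = 0.156 in limma); it was the 1 gene that passed with the experiment left out of the model, against 1.77% of all genes.

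Next in Aldefluor+ SUM159 cells came CDCA8, which encodes borealin of the passenger complex, KIF23, a motor of the central spindle, and NEK2. CDCA8 read 5.67, 5.89 and 5.55 with DMSO and 5.39, 5.35 and 5.27 with ID8. KIF23 read 7.20, 7.19 and 7.21 with DMSO and 6.81, 6.95 and 6.79 with ID8. Neither gene's arrays overlapped between the groups, and the differences were -0.37 ± 0.12 and -0.35 ± 0.12 (limma, adjusted p = 0.256 and 0.257). NEK2 differed by -0.31 ± 0.10, PLK1 by -0.41 ± 0.14 and FOXM1 by -0.31 ± 0.12 (limma, adjusted p = 0.262, 0.271 and 0.362).

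Not all of the core machinery shared this direction. CCNB1 differed by 0.07 ± 0.10 in Aldefluor+ SUM159 cells, from 8.82, 8.96 and 8.85 with DMSO to 8.95, 8.97 and 8.93 with ID8, and HMMR, a spindle-binding protein, by 0.07 ± 0.10. AURKA was the third gene above 0, at 0.06 ± 0.14, and turned to -0.03 without experiment 3. CDK1 differed by -0.19 ± 0.22, with overlapping arrays: 6.98, 6.60 and 6.67 with DMSO and 6.40, 6.95 and 6.31 with ID8. Without experiment 2 its difference was 0.00.

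In Aldefluor- SUM159 cells the list was nearest to level, with a median difference of -0.09 and 9 of 36 genes above 0. None passed in limma, against 0.277% of all genes, and 3 of 36 had an unadjusted p under 0.05, near the 8.03% of all genes. The experiments differed: the median of the genes was -0.25 in experiment 2, 0.08 in experiment 3 and -0.10 in experiment 4. Without experiment 2 the median was -0.02, and without experiment 3 it was -0.15. RNA per collected cell with ID8 against DMSO ranked the experiments in the same order, at -0.19, 0.64 and 0.32 on the log2 scale. The order was shared in Aldefluor- T47D cells too, but not in Aldefluor+ SUM159 cells. In Aldefluor+ T47D cells it was reversed: RNA stood at -0.63, 0.04 and 0.03 in experiments 5, 6 and 7, beside medians of -0.22, -0.32 and -0.24. The part of RNA yield was not tested.

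CENPF, a large kinetochore protein, and MKI67 lay lowest in Aldefluor- SUM159 cells. CENPF read 8.14, 7.90 and 8.04 with DMSO and 7.64, 7.64 and 7.83 with ID8, and MKI67 read 8.01, 7.82 and 7.75 with DMSO and 7.49, 7.51 and 7.62 with ID8. Both were apart on all arrays, at -0.32 ± 0.12 and -0.32 ± 0.13 (limma, adjusted p = 0.491 and 0.544). UBE2C was again highest, at 0.30 ± 0.13, with 5.10, 5.17 and 5.36 under DMSO and 5.44, 5.48 and 5.62 under ID8. CDC25B stood at 0.16 ± 0.12.

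Averaged over both SUM159 fractions the median was -0.12, with 3 of 36 genes above 0 and none past the threshold in limma, against 0.688% of all genes. Of the 36, 9 had an unadjusted p under 0.05, all lower, against 11.3% of all genes. CDCA8 was at -0.30 ± 0.08, KIF20A at -0.31 ± 0.09 and NEK2 at -0.25 ± 0.07 (limma, adjusted p = 0.133, 0.136 and 0.163), and these 3 passed with the experiment left out of the model, against 2.99% of all genes. A minimum mean signal of 2 and the trended, robust prior each let 1 gene pass, against 2.86% and 1.33% of the genes tested. Without experiment 2 the median of the 36 genes was -0.08. The difference of the ID8 effects between Aldefluor+ and Aldefluor- SUM159 cells had a median of -0.09, and no gene passed, against 0.00447% of all genes; UBE2C at -0.41 ± 0.18 and FOXM1 at -0.36 ± 0.17 were the 2 with an unadjusted p under 0.05 in limma, against 7.06% of all genes. Without experiment 2 that median was -0.19, and without experiment 3 it was -0.04.

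**Figure D3:**
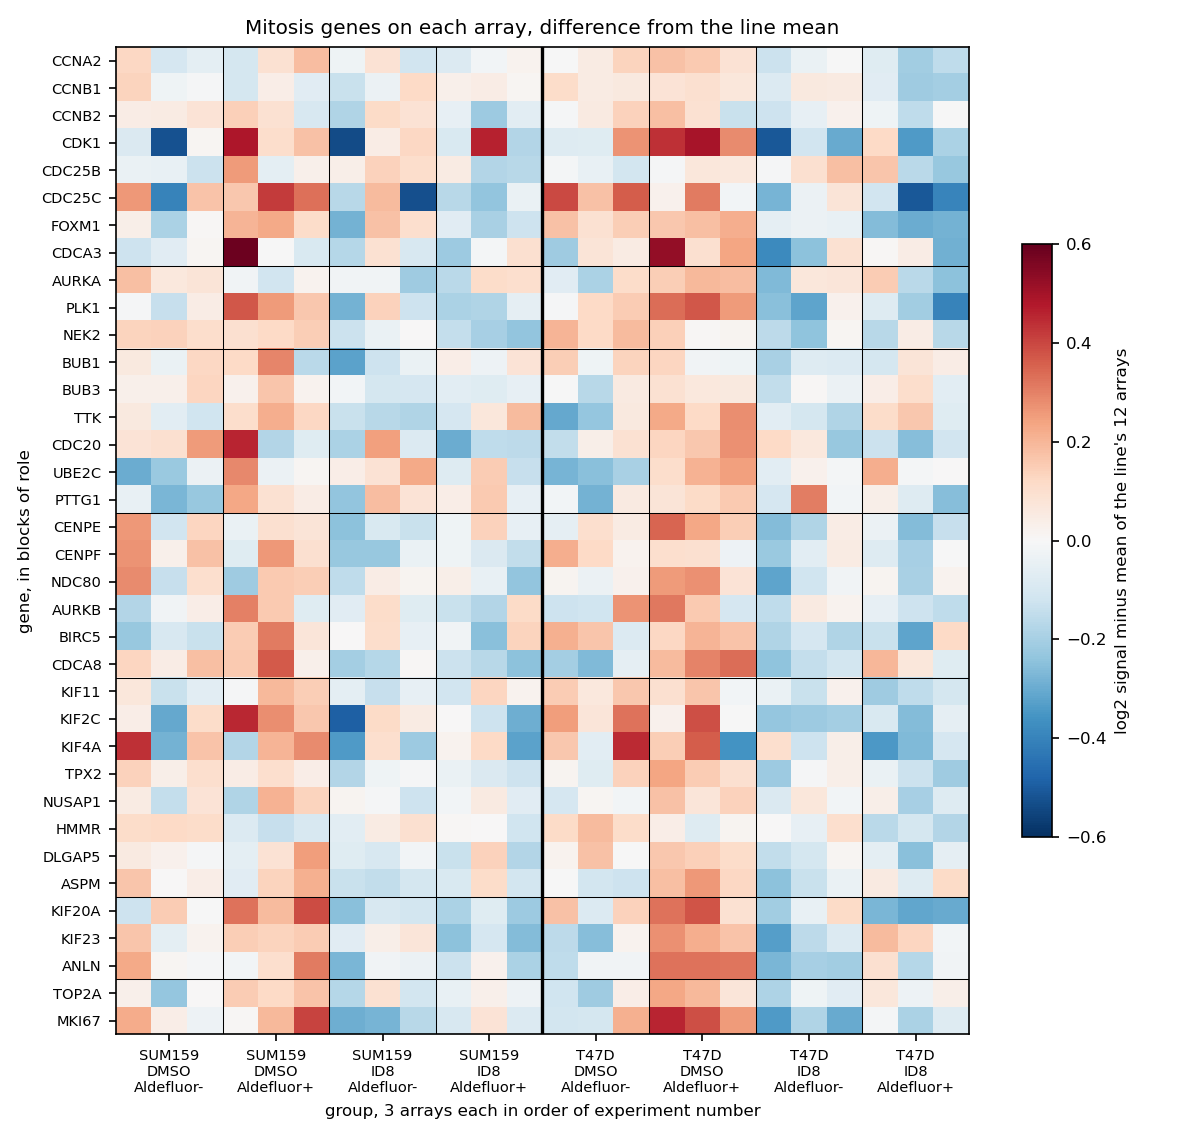
Difference of each of the 36 genes from its mean over the line's 12 arrays (colour, log2 scale, with values beyond 0.6 shown at the end colour), by gene in blocks of role (rows) and by array in groups of 3 in order of experiment (columns). Most rows are above the line mean (red) in the Aldefluor+ DMSO columns, where 23 to 30 genes in SUM159 and 28 to 35 in T47D lay above it, and below it (blue) in the ID8 columns of T47D.

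The ID8 effects, averaged over fractions, were also compared between the lines. The difference, T47D minus SUM159, had a median of -0.05 over the 36 genes with 11 above 0. None passed in limma, against 0.647% of all genes, and none had an unadjusted p under 0.05, where 10.9% of all genes did. Without experiment 3 the median was -0.01, and without experiment 2 it was -0.10. BIRC5, which encodes the passenger protein survivin, was at -0.24 ± 0.14, CDK1 at -0.39 ± 0.22 and CDCA8 at 0.20 ± 0.12. A different response of the lines was not shown for these genes, though the intervals were wide: that of PLK1 ran from -0.47 to 0.11. Each experiment held only 1 line. What the authors' batch adjustment did to the size of a response in each line was not tested, so this comparison cannot settle whether the lines responded alike.

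**Figure D4:**
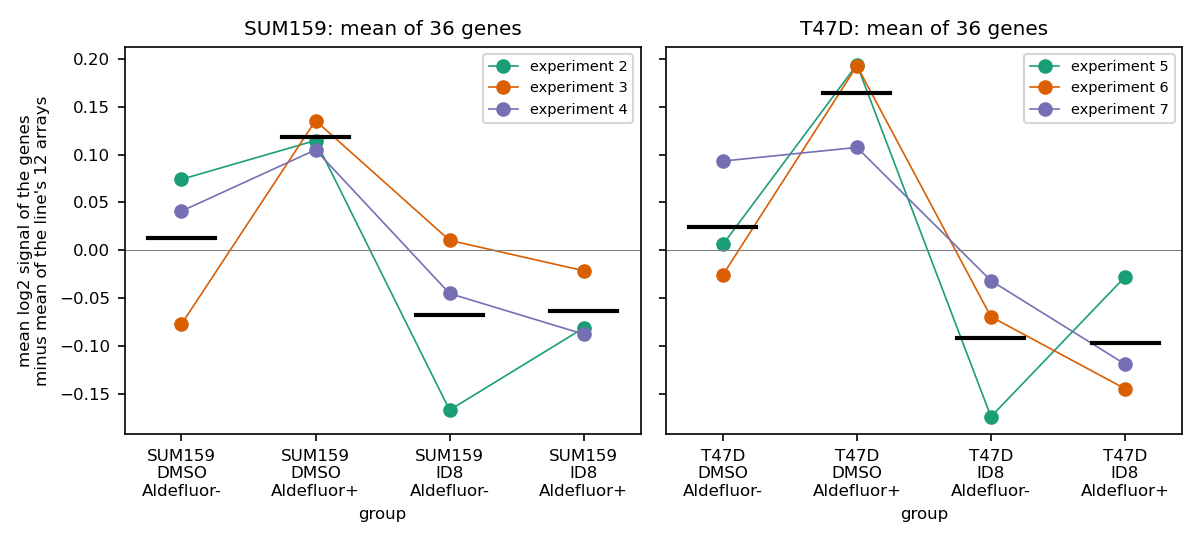
Mean log2 signal of the 36 genes on each array, minus the mean over the line's 12 arrays (y axis), by group (x axis), with arrays of an experiment joined by a line and the group mean as a black bar. The 3 Aldefluor+ DMSO arrays of each line are the highest of their experiment, while the Aldefluor- DMSO arrays are spread.

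With DMSO, Aldefluor+ cells were compared with Aldefluor- cells to see whether the fractions differed in cultures given only the solvent. The Aldefluor+ DMSO arrays used here are also the baseline for ID8 in Aldefluor+ cells. Higher signals on these arrays would raise the fraction difference and deepen the drop with ID8, so the 2 are not separate observations. In T47D, 27 of the 36 genes were higher in the Aldefluor+ fraction, with a median of 0.15 against 0.00 over all genes. No gene passed in limma, against 0.152% of all genes, and 8 had an unadjusted p under 0.05, all higher, against 8.96% of all genes. The medians by experiment were 0.18, 0.23 and 0.05 in experiments 5, 6 and 7; without experiment 6 the median of the fitted differences was 0.09.

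CDCA8 read 5.73, 5.84 and 5.87 in Aldefluor+ and 5.34, 5.28 and 5.49 in Aldefluor- T47D cells with DMSO. Its groups were apart by 0.45 ± 0.12 (limma, adjusted p = 0.215), and it was the 1 gene that passed with the experiment left out of the model, against 1.08% of all genes. UBE2C was at 0.43 ± 0.13, ANLN, the anillin scaffold of the cleavage furrow, at 0.39 ± 0.12, KIF23 at 0.35 ± 0.12 and MKI67 at 0.36 ± 0.13. ANLN was nearly constant in the Aldefluor+ fraction, at 8.89, 8.89 and 8.88, against 8.41, 8.54 and 8.54. HMMR stood apart from these at -0.14 ± 0.10.

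With ID8 the T47D fractions read nearly level as a list, with a median of -0.01 and 16 of 36 genes above 0. In limma none passed, against 0.366% of all genes, and 1, KIF23, had an unadjusted p under 0.05, against 8.93% of all genes. KIF23 was higher in Aldefluor+ cells by 0.29 ± 0.12, from 6.71, 6.89 and 6.96 to 7.23, 7.17 and 7.03, with no overlap. CDCA8 differed by 0.23 ± 0.12, whereas KIF20A and FOXM1 differed by -0.25 ± 0.12 and -0.24 ± 0.12. The median was 0.16 in experiment 5 and -0.09 and -0.07 in experiments 6 and 7, and without experiment 5 the fitted median was -0.08.

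Averaged over both treatments, T47D fractions differed by a median of 0.03, with 24 of 36 genes above 0. The limma test called none of them, against 0.875% of all genes; 9 had an unadjusted p under 0.05, of which 8 were higher in Aldefluor+ cells, against 11.1% of all genes. CDCA8 and KIF23 came closest, at 0.34 ± 0.08 and 0.32 ± 0.08 (adjusted p = 0.0795 and 0.0834 in limma). They were followed by ANLN at 0.29 ± 0.09 and TTK, the checkpoint kinase MPS1, at 0.27 ± 0.09, and these 4 passed with the experiment left out of the model, against 3.13% of all genes. With the minimum mean signal of 2 there were 2 genes past the threshold, against 2.81% of the genes tested, and with the trended, robust prior 3, against 1.44%. HMMR was at -0.15 ± 0.07. Without experiment 5 the median of the 36 genes was -0.02.

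**Figure D5:**
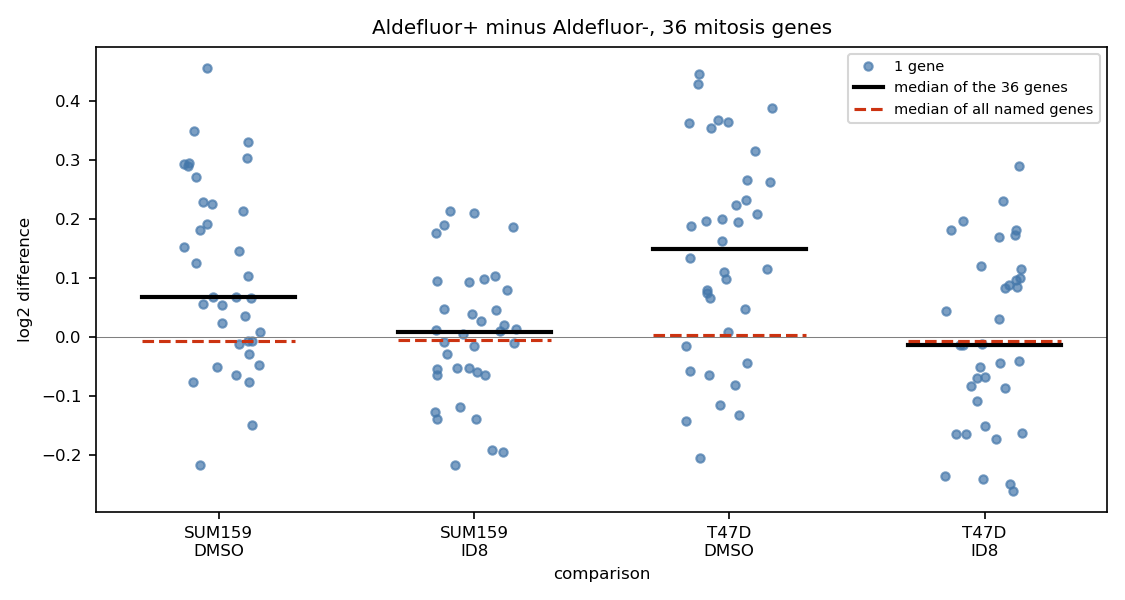
Log2 difference between Aldefluor+ and Aldefluor- cells (y axis) of the 36 measured mitosis genes in each line and treatment (x axis), with 1 point per gene, the median of the 36 in black and the median of all named genes as a dashed red line. The medians are 0.07 and 0.01 in SUM159 with DMSO and ID8, and 0.15 and -0.01 in T47D.

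In SUM159 with DMSO, 25 of 36 genes were higher in the Aldefluor+ fraction, with a median of 0.07. There was no call in limma, against 0.0223% of all genes, and 5 had an unadjusted p under 0.05, of which 4 were higher, against 7.95% of all genes. The median was 0.19 in experiment 3 and -0.01 and 0.08 in experiments 2 and 4; without experiment 2 the fitted median was 0.16, and without experiment 3 it was 0.03. BIRC5 read 6.47, 6.62 and 6.38 in Aldefluor+ and 6.09, 6.22 and 6.18 in Aldefluor- cells. Its arrays were apart by 0.33 ± 0.14 (limma, adjusted p = 0.553). KIF20A was at 0.29 ± 0.12, PLK1 at 0.30 ± 0.14 and UBE2C at 0.27 ± 0.13, and HMMR again ran the other way at -0.22 ± 0.10, with 7.69, 7.64 and 7.68 against 7.88, 7.89 and 7.88.

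With ID8 the SUM159 fractions had a median difference of 0.01 with 19 of 36 genes above 0. No gene passed in limma, against 0.201% of all genes, and none had an unadjusted p under 0.05, where 7.52% of all genes did. Without experiment 2 the median was -0.04. TTK and MKI67 were at 0.21 ± 0.12 and 0.21 ± 0.13 and KIF23 at -0.22 ± 0.12. Over both treatments the median was 0.05, with 26 genes above 0, none past the threshold in limma against 0.219% of all genes, and 1, TTK at 0.20 ± 0.09, with an unadjusted p under 0.05, against 8.46% of all genes. CDK1 stood at 0.32 ± 0.16 and HMMR at -0.14 ± 0.07. Without experiment 3 this median was 0.02.

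The fraction difference itself was set against that of the other line. T47D minus SUM159, averaged over treatments, had a median of 0.00 over the 36 genes with 18 above 0. In limma none passed, against 0.478% of all genes, and 3 had an unadjusted p under 0.05, a share no higher than the 9.38% of all genes: KIF23 at 0.38 ± 0.12, CDCA8 at 0.33 ± 0.12 and ANLN at 0.26 ± 0.12 (adjusted p = 0.221, 0.348 and 0.529). KIF23 passed with the experiment left out of the model, as did 1.99% of all genes. The median was -0.07 without experiment 5 and 0.10 without experiment 7. The limit that the batch adjustment sets on a comparison between lines holds here too.

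A further list of 66 mitosis genes, 64 of them measured, was read in the same fit. In Aldefluor+ T47D cells with ID8 its median was -0.34, and 3 of 64 lay above 0, against 48.2% of all genes. An unadjusted p under 0.05 in limma was found for 35, all lower, against 10.8% of all genes. PBK, a mitotic kinase, was the 1 gene called, against 0.375% of all genes. It fell from 8.32, 8.33 and 8.21 with DMSO to 7.69, 7.67 and 7.64 with ID8, with no overlap. Its change was -0.62 ± 0.13 (limma, adjusted p = 0.0486), with an adjusted p of 0.00396 to 0.367 over the alternative settings. Over both T47D fractions PBK was again the 1 gene of the list called, against 0.505% of all genes. It fell by 0.49 ± 0.09 on the log2 scale (limma, adjusted p = 0.0197, and 0.000995 to 0.264 over the alternatives). PBK passed in neither comparison when any 1 of experiments 5, 6 and 7 was left out. In SUM159 the further list had medians of -0.11 in Aldefluor+ and -0.06 in Aldefluor- cells with ID8. None was called, against 0.241% and 0.277% of all genes.

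Of 15 measured genes that restrain entry into mitosis, SFN was the 1 called, in a comparison that called 0.219% of all genes. It encodes a 14-3-3 protein that keeps cyclin B and CDK1 out of the nucleus, and it was higher in Aldefluor+ than in Aldefluor- SUM159 cells over both treatments by 0.73 ± 0.11 (limma, adjusted p = 0.0114; 0.114 to 0.257 without 1 of experiments 2, 3 and 4). With DMSO it read 5.89, 6.06 and 5.82 in Aldefluor+ and 4.87, 5.13 and 5.22 in Aldefluor- SUM159 cells. With ID8 it read 5.88, 5.79 and 5.85 against 5.08, 5.31 and 5.29, again with no overlap. In T47D SFN was not called between fractions. With DMSO it read 5.78, 5.72 and 5.80 in Aldefluor+ against 5.05, 5.20 and 5.67 in Aldefluor- T47D cells, with no overlap. With ID8 the T47D arrays overlapped, at 5.53, 5.59 and 5.47 against 5.65, 5.57 and 5.14. With ID8 against DMSO the median of these 15 genes lay between -0.19 in Aldefluor+ T47D and 0.03 in Aldefluor- SUM159 cells.

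Genes of the G1/S transition and of DNA replication, which act before mitosis, were read beside the mitosis genes. Of the 30 measured, none was called with ID8 in either fraction of either line. Of all genes, 0.241% were called in Aldefluor+ and 0.277% in Aldefluor- SUM159 cells. In T47D these shares were 0.375% and 0.0179%. Their median difference with ID8 was 0.19 in Aldefluor- and 0.03 in Aldefluor+ SUM159 cells, where the mitosis genes had -0.09 and -0.16. In T47D it was -0.23 in Aldefluor+ and -0.06 in Aldefluor- cells, beside -0.25 and -0.12 for the mitosis genes. The difference of the ID8 effects between the lines had a median of -0.23 over the 30 replication genes and of -0.05 over the mitosis genes. Of the 30, 0 lay above 0, against 50.8% of all genes, and none was called, against 0.647%. The part of the authors' batch adjustment in this difference between lines was not tested.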

How the data were processed

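The deposited values are log2 signals of 53617 probe sets on Affymetrix Human Gene arrays. Per the labels and the design text, the authors summarised them with robust multiarray averaging and adjusted them for experimental and processing batch with ComBat; the sources used here give neither versions nor the batch factor and covariates. Amplified cDNA from sorted cells was hybridised, so signals are relative within a probe set. A probe set was named where the platform annotation gave 1 symbol (23871 probe sets; 1842 had several and 27904 none), with symbols updated through the GRCh38.p14 RefSeq table; of 632 genes with more than 1 probe set the one with the highest mean was kept.

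All 24 arrays and 22395 genes were fitted in limma 3.58.1 (R 4.3.3) using 8 group means plus a block term for experiment inside each line (12 residual degrees of freedom), 16 contrasts and Benjamini-Hochberg adjustment over all genes of a contrast, with a threshold of 0.05. The fit was tested on simulated data with independent noise, no batch adjustment and planted changes larger than those of the mitosis genes. That test does not bear on how the experiment is treated. Experiments pair the arrays because, per the labels, each gave 1 array to every group of its line. Deviations from the group means of arrays of the same experiment correlated at -0.41 to -0.27 over 36 pairs, in values the authors had already adjusted for batch. Where more genes passed without the block, the count stands beside the result. Separate experiments are the replicates, and 3 per group limit the precision.

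The genes and lists were chosen with earlier results of these data known, so no list was tested as a whole. In each comparison the text names every gene past the threshold, otherwise up to 4 with the largest and up to 4 with the smallest ratio of difference to standard error, beside CDK1, CCNB1, PLK1, AURKA, AURKB, FOXM1, TOP2A, MKI67 and BUB3 as representatives. Of the other lists every gene called is named. The alternatives were no block, the arrays of 1 line alone, median centring, a minimum mean signal of 2, averaged probe sets, all probe sets in the adjustment, a trended and robust prior, and each experiment left out.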

Additional observations from a re-analysis of the deposited data

How the results depend on the processing

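No mitosis gene passed in the main analysis, and 15 of the alternative counts were above 0. Without the replicate block the counts were 1 for ID8 in Aldefluor+ SUM159, 4 for ID8 in Aldefluor+ T47D, 3 and 5 for ID8 over both fractions of SUM159 and T47D, 1 for the T47D fractions with DMSO, 4 for the T47D fractions over both treatments and 1 for the fractions between lines. The model without the block takes no account of experiment means already nearly removed from the values, so these counts may be too high. The authors' batch factor is not known. With a minimum mean signal of 2, which tests fewer genes, the counts were 1 (ID8 in Aldefluor+ T47D), 1 and 4 (ID8 over both fractions of SUM159 and T47D) and 2 (T47D fractions over both treatments). With the trended, robust prior they were 2, 1, 3 and 3 in that order, and the cause was not tested. No gene passed in the other comparisons under these settings, nor in any comparison with the arrays of 1 line alone (which allows none between lines), median centring, averaged probe sets, all probe sets in the adjustment, any experiment left out, or BUB1B and CENPA added through their shared probe sets, which was chosen after seeing the data. The median for ID8 over both T47D fractions ranged from -0.20 to -0.16 with an experiment left out. With an experiment left out, 4 differences changed sign: AURKA (-0.027 to 0.16) and CDK1 (-0.46 to 0.0011) with ID8 in Aldefluor+ SUM159, BUB1 (-0.084 to 0.083) with ID8 in Aldefluor+ T47D, and UBE2C (-0.0011 to 0.096) with ID8 over both T47D fractions. With 3 arrays per group the median standard error was 0.12, and differences well above it did not pass. The widest with ID8 in Aldefluor+ T47D cells, -0.56, was among these. The lack of calls therefore does not show that differences were absent or small. PTTG1 and AURKA had the lowest signals of the mitosis genes, ranking at 47.6% and 54.8% among all named genes. Whether signals at that level follow the amount of RNA was not tested.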
